A study of Mus musculus with 6 samples.

Results

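The genes described here are 10 components of MHC class I antigen presentation: H2-K1, H2-D1, B2m, Tap1, Tap2, Tapbp, Psmb8, Psmb9, Psmb10 and Nlrc5. They were chosen as parts of 1 pathway, with earlier results of these data known, and taken by symbol from the 43043 genes listed for each sample, where each was found under exactly this symbol. The samples were cultures of D4M-3A, a cell line from mouse melanoma, without any treatment given in the labels. In the 3 Ctrl samples the cells carried an empty CRISPR-Cas9 construct, and in the 3 Nfkbiz KO samples a construct directed against Nfkbiz, the gene of the nuclear IκB protein IκBζ, a co-regulator of NF-κB and STAT target genes. Cells of both groups had been transduced with lentivirus and selected with puromycin. Whether the knockout cells were a pool or 1 clone is not given in the sources used here, so a difference between the groups and a difference between 2 selected populations cannot be told apart. The labels do not say that replicates were separate cultures, whereas the study describes the 3 samples of a group as independent experiments. The p-values cover the spread between these samples.

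MHC class I molecules show peptides from inside the cell to CD8+ T cells. The proteasome cuts proteins into peptides, and in cells exposed to interferon 3 of its catalytic subunits are replaced by Psmb8, Psmb9 and Psmb10, which together form the immunoproteasome. The peptides are carried into the endoplasmic reticulum by the transporter of Tap1 and Tap2, loaded with the help of tapasin (Tapbp) onto a heavy chain such as H2-K1 or H2-D1 bound to beta-2 microglobulin (B2m), and taken to the cell surface. Nlrc5 is a transcriptional activator of many of these genes, and loss of class I presentation is a known way for melanoma to escape T cells.

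Between 32219900 and 44927203 reads per sample fell on genes. The targeted gene Nfkbiz had 63.4 to 75.2 TPM in the Ctrl samples and 34.7 to 35.1 TPM in the Nfkbiz KO samples (log2 fold change -0.98), which counts all its transcripts, edited or not. TPM corrects the reads on exons for transcript length and depth and was used here for levels. Fold changes and adjusted p-values come from all reads on a gene, by the quasi-likelihood test of edgeR on 14419 genes, adjusted after Benjamini and Hochberg, so they need not equal the ratio of the TPM values. Of the melanocyte lineage markers, Tyr and Sox10 had 0 reads in every sample, and the 7 markers summed to 1.11 to 1.74 TPM in Ctrl and 1.27 to 1.68 TPM in Nfkbiz KO, so the melanoma label rests on the name of the line and not on these genes. The 8 leukocyte markers summed to 0.525 to 0.774 TPM in Ctrl and 1.04 to 1.66 TPM in Nfkbiz KO, of which the only tested one was Laptm5 (log2 fold change 1.83), while Cd3e had 0 reads and Ptprc at most 6 in any sample. The 4 endothelial markers summed to 0.536 to 0.812 TPM in Ctrl and 1.32 to 1.83 TPM in Nfkbiz KO. Of these, Cdh5 had a log2 fold change of 1.34 (adjusted p = 0.0023, edgeR's quasi-likelihood test) and Pecam1 of -0.16 (adjusted p = 0.875, same test). The 4 fibroblast markers summed to 389 to 446 TPM in Ctrl and 292 to 322 TPM in Nfkbiz KO. By the same test Col1a1 (log2 fold change -0.58, adjusted p = 1.2e-05) and Dcn (-0.79, adjusted p = 0.00025) were lower, whereas Pdgfra had 0.002 (adjusted p = 0.985). The part of these markers in the results for the class I genes was not tested, and in bulk RNA fewer cells of a type and less RNA per cell cannot be told apart.

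All 10 class I genes were higher in Nfkbiz KO than in Ctrl at an adjusted p of 0.05 or less, where 18.2% of all tested genes were called in that direction. Their log2 fold changes ran from 0.20 for B2m to 0.81 for Psmb10, with a median of 0.32, beside a median of -0.02 over all genes tested. The increases were therefore moderate, from 1.15-fold to 1.76-fold. Only Tapbp, Psmb9 and Psmb10 passed 1.5-fold with an adjusted p of 0.1 or less, a threshold met upwards by 5.81% of all genes. Under the thresholds of the study (a change above 2-fold with a difference above 4, at an adjusted p of at most 0.05, the difference taken here as TPM since its unit is not given), 0 of the 10 genes passed edgeR's quasi-likelihood test, as against 0.756% of all genes upwards, although all 10 had an unadjusted p of 0.05 or less, and DESeq2 likewise placed 0 past these thresholds. The CPM values (reads scaled by library size) of the 2 groups did not overlap for any of the 10 genes, which held upwards for 23.9% of all genes. The plot of log2 fold changes shows the genes in order with their intervals.

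**Figure D1:**
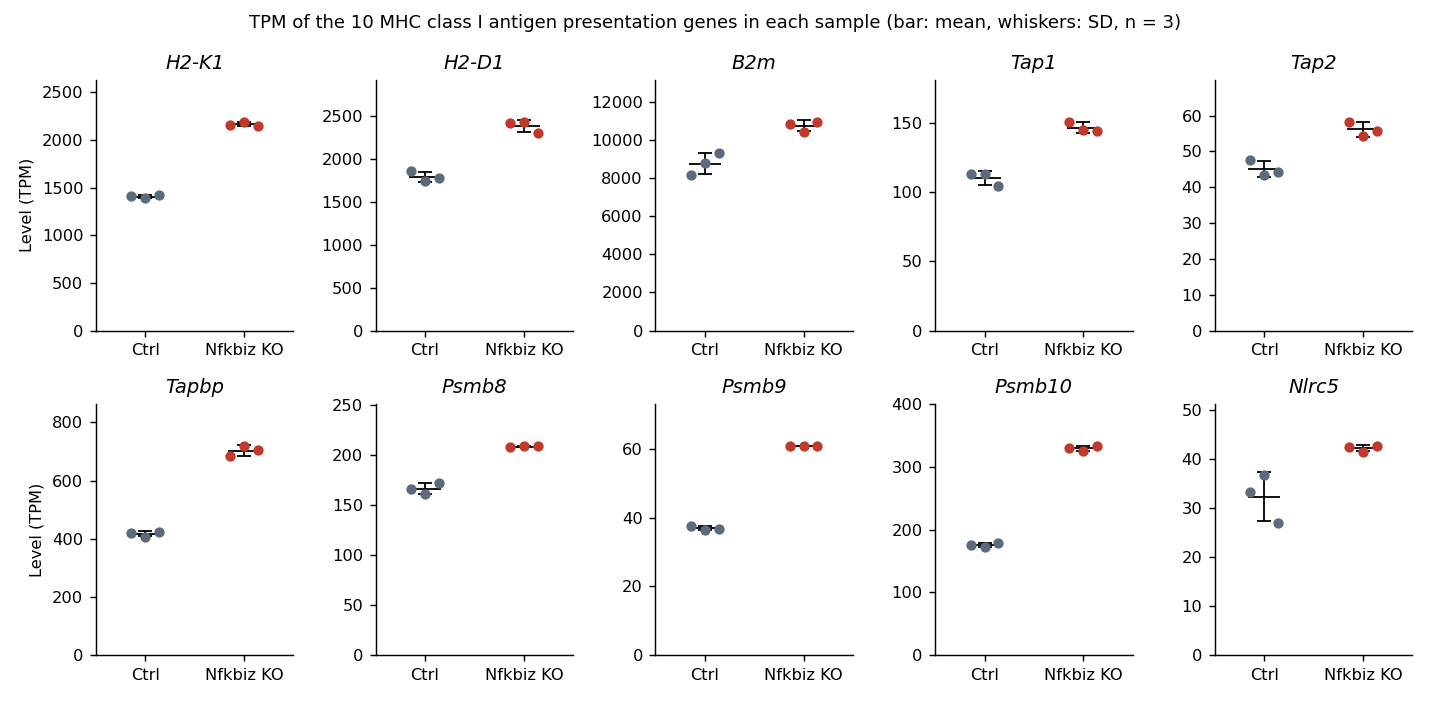
Level in TPM (vertical axes, each from 0) of the 10 class I genes in each of 3 Ctrl (grey) and 3 Nfkbiz KO (red) samples, with the mean as a bar and the SD as whiskers. In each panel the 3 Nfkbiz KO samples lie above all 3 Ctrl samples, narrowly in B2m and widely in Psmb10.

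Levels differed far more between the genes than between the groups. In Ctrl cells B2m had the highest mean, 8748 TPM, followed by H2-D1 and H2-K1, then Tapbp, Psmb10, Psmb8, Tap1, Tap2, Psmb9 and Nlrc5. The mean of B2m was 271 times that of Nlrc5 in Ctrl and 255 times in Nfkbiz KO. Only the samples of Psmb9 and Nlrc5, the lowest 2 genes in Ctrl, overlapped among neighbours in that order. In Nfkbiz KO the order was the same but for 1 exchange, in which Psmb9 stood above Tap2, and no neighbours overlapped.

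The classical heavy chains H2-K1 and H2-D1 hold the peptide groove. H2-K1 had 1410, 1392 and 1418 TPM in Ctrl replicates 1, 2 and 3 and 2158, 2193 and 2148 TPM in Nfkbiz KO replicates 1, 2 and 3. In TPM the replicates were tight and the groups lay far apart. On the log2 CPM scale the SD was 0.084 in Ctrl and 0.019 in Nfkbiz KO. The log2 fold change of H2-K1 was 0.53 (adjusted p = 2.8e-05, quasi-likelihood test of edgeR, with a standard error of 0.061). H2-D1 had 1853, 1742 and 1773 TPM in Ctrl and 2415, 2434 and 2302 TPM in Nfkbiz KO. All its knockout samples were again above the controls, by a smaller step of 0.31 (adjusted p = 0.0021, quasi-likelihood test of edgeR, with a standard error of 0.064). H2-K1 lies on chromosome 17 from 34214987 to 34219321 on the minus strand of GRCm39, and H2-D1 on the same chromosome from 35481691 to 35486475 on the plus strand. Near-identical heavy chain genes could share reads, but at least 99.0% of the reads of each of the 10 genes were uniquely mapped.

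B2m, the light chain that every class I heavy chain needs to fold, was the most abundant of the genes and the least changed. It had 8163, 8797 and 9285 TPM in Ctrl and 10854, 10419 and 10958 TPM in Nfkbiz KO. The groups did not overlap, but the Ctrl samples were spread (8748 ± 562 TPM, SD, n = 3, against 10744 ± 286). Its log2 fold change of 0.20 (standard error 0.072) had an adjusted p of 0.048 in edgeR's quasi-likelihood test, just inside the threshold. The call was lost with uniquely mapped reads (adjusted p = 0.051) and without any 1 of Ctrl replicates 1 and 2 and Nfkbiz KO replicates 1, 2 and 3, when the log2 fold change was 0.15 to 0.22. B2m is at 121977957 to 121983594 on the plus strand of chromosome 2, where it overlaps Patl2 on the other strand, and the reads were counted without regard to strand.

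The promoters of these 3 genes are shown because they carry the NF-κB motif, through which the partners of IκBζ bind DNA. They are RefSeq sequences of GRCm38.p6, from 250 bases before to 50 bases after the start that RefSeq lists for the gene, which were each found once, letter for letter, on their chromosome in GRCm39, whose coordinates are given. Written 5′ to 3′ on the strand of the gene, with matches to the NF-κB motif and to the interferon-stimulated response element (ISRE) in capitals, they lie for H2-K1 at chr17:34219272-34219571 (minus strand), for H2-D1 at chr17:35481820-35482119 (plus strand) and for B2m at chr2:121977918-121978217 (plus strand). The RefSeq starts of H2-D1 and B2m lie downstream of the gene starts given above, which are from GENCODE, so that the H2-D1 window falls within the GENCODE gene and the B2m window mostly does. The sequences are:
H2-K1: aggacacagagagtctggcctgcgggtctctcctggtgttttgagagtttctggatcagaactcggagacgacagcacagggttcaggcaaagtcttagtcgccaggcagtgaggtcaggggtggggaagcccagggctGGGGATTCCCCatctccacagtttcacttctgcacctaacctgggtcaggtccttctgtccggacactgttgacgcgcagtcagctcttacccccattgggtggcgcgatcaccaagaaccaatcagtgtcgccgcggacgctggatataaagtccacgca
H2-D1: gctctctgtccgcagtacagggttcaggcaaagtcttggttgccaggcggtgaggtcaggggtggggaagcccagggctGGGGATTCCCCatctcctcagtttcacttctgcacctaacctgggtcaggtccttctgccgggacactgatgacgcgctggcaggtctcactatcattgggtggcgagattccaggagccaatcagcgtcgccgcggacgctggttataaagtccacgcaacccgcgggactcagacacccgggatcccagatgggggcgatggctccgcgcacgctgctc
B2m: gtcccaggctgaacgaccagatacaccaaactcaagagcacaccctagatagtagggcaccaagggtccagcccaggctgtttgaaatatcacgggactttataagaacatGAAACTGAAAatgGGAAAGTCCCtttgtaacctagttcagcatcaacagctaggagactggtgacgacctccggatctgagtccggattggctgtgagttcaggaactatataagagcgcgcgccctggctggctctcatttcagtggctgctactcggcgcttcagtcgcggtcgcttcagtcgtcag

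The H2-K1 and H2-D1 promoters share a run of 47 identical letters, which holds the capital run, where 2 overlapping matches to the NF-κB motif begin at base -111 from the RefSeq start in H2-K1 and at base -171 from that in H2-D1. In B2m the ISRE match, GAAACTGAAA, stands just before the NF-κB match. RefSeq promoters were found for 8 of the 10 genes, all but Tap2 and Nlrc5. Searched on both strands, the NF-κB motif was present in these 3 of the 8 promoters and in 4.51% of all 32851 promoters of this length. ISRE (GAAA, any 2 bases and GAAA again) matched B2m alone of the 8 and 3.44% of all. Only this spelling was searched, so an ISRE spelled otherwise was not counted in any promoter, H2-K1 and H2-D1 included. The GAS motif of STAT factors (TTCNNNGAA) matched Psmb8 alone of the 8 and 8.3% of all. CCAAT, the letters bound by NF-Y, was in 6 of the 8 (H2-K1, H2-D1, B2m, Tap1, Tapbp and Psmb9) and in 37.4% of all, and TGACG, the core of the cyclic AMP response element, in 5 of the 8 (H2-K1, H2-D1, B2m, Tap1 and Psmb9) and in 20.8% of all. Psmb10, the gene with the highest fold change, matched none of the 5 motifs in this window. The RefSeq windows of Tapbp, Psmb8 and Psmb9 also fall within the GENCODE genes, so bases before the GENCODE starts of these genes were not searched.

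The peptide transporter is a dimer of Tap1 and Tap2, whose genes lie close together with Psmb8 between them. Tap1 had 113, 113 and 104 TPM in Ctrl and 151, 144 and 144 TPM in Nfkbiz KO. The step between the groups was several times the spread within them, with a log2 fold change of 0.32 (adjusted p = 0.00036, quasi-likelihood test of edgeR, with a standard error of 0.050). Tap2 had 47.7, 43.5 and 44.2 TPM in Ctrl and 58.3, 54.2 and 55.8 TPM in Nfkbiz KO. It was higher in all 3 knockout samples, but by only 0.21 on the log2 scale (adjusted p = 0.024, quasi-likelihood test of edgeR, with a standard error of 0.065). This call was lost without Ctrl replicate 2 (adjusted p = 0.051), Nfkbiz KO replicate 1 (0.10) or Nfkbiz KO replicate 3 (0.076).

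Tapbp encodes tapasin, which bridges the transporter and the heavy chain and edits the bound peptides. It had 421, 406 and 424 TPM in Ctrl and 684, 719 and 707 TPM in Nfkbiz KO. These samples differed by far more than the replicates, and the log2 fold change of 0.66 (adjusted p = 5.1e-06, quasi-likelihood test of edgeR, with a standard error of 0.063) was the second largest of the 10. Tapbp lies on the plus strand of chromosome 17 from 34134873 to 34148267 and overlaps Zbtb22 on the same strand.

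Of the 3 immunoproteasome subunits, Psmb10 (MECL-1, with trypsin-like activity) had the largest change. It had 176, 172 and 178 TPM in Ctrl and 330, 326 and 333 TPM in Nfkbiz KO. Its log2 fold change was 0.81 (adjusted p = 3.5e-07, quasi-likelihood test of edgeR, with a standard error of 0.057), and leaving out any 1 sample gave 0.77 to 0.86. Psmb10 (chromosome 8, 106662362 to 106665077, minus strand) is 1 of 3 of the genes that lie outside the MHC region, with B2m and Nlrc5.

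Psmb9 (LMP2), which replaces Psmb6, had 37.6, 36.6 and 36.8 TPM in Ctrl and 61.0, 60.9 and 60.9 TPM in Nfkbiz KO. Replicates were almost the same in TPM, whereas the SD of log2 CPM was 0.065 in Ctrl and 0.014 in Nfkbiz KO. The log2 fold change was 0.62 (adjusted p = 3.1e-06, quasi-likelihood test of edgeR, with a standard error of 0.056). Psmb9 is in a list of genes that the study chose on these samples, so its direction is not independent evidence. Psmb8 (LMP7), which replaces Psmb5 and carries chymotrypsin-like activity, had 167, 161 and 172 TPM in Ctrl and 208, 209 and 209 TPM in Nfkbiz KO. The groups were apart by 0.23 on the log2 scale (adjusted p = 0.012, quasi-likelihood test of edgeR, with a standard error of 0.062). Without Nfkbiz KO replicate 2 or replicate 3 its adjusted p was 0.051 or 0.054.

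Psmb9, Tap1, Psmb8 and Tap2 stand side by side within 34.87 kb of chromosome 17, from 34400960 to 34435829. Psmb9 (34400960 to 34406738) is on the minus strand and Tap1 (34405996 to 34416199), Psmb8 (34416690 to 34420428) and Tap2 (34422501 to 34435829) are on the plus strand. The ends of Psmb9 and Tap1 overlap by 743 bases, and reads there cannot be assigned to either by strand. Their promoter windows share 275 bases read in opposite directions, so 1 sequence shows both. It is the RefSeq window of Tap1, chr17:34406280-34406579 on the plus strand, written 5′ to 3′, with the CCAAT match and the TGACG match in capitals. Its RefSeq start is downstream of the GENCODE start of Tap1, and the window falls within the GENCODE gene:
Tap1: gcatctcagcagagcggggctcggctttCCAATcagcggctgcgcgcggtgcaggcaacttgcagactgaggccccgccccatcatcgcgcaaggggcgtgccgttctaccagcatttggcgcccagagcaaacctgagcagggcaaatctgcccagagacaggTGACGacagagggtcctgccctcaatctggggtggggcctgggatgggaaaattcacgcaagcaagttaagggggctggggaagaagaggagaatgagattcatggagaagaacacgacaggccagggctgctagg

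Although they share this stretch, the 2 genes differed in the size of their change. The ratio of Psmb9 to Tap1 in TPM was 0.332, 0.323 and 0.352 in Ctrl and 0.404, 0.422 and 0.422 in Nfkbiz KO, so that it rose in every knockout sample above all controls. It is 1 of 6 ratios chosen after the values of the genes were seen. The ratio of Psmb10 to Psmb8 went from 1.05 ± 0.016 to 1.58 ± 0.018 (mean and SD, n = 3), that of Tapbp to Tap1 from 3.79 ± 0.24 to 4.80 ± 0.24, that of H2-K1 to H2-D1 from 0.787 ± 0.022 to 0.909 ± 0.021 and that of H2-K1 plus H2-D1 to B2m from 0.367 ± 0.029 to 0.424 ± 0.019. In these 5 ratios the groups did not overlap. The ratio of Tap1 to Tap2, the partners of the transporter, was 2.45 ± 0.14 in Ctrl and 2.61 ± 0.046 in Nfkbiz KO with overlapping samples (two-sided exact permutation test, p = 0.3).

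Within the proteasome, each immunoproteasome subunit was set against the constitutive subunit whose place it takes. Psmb5 was at 542 ± 31 TPM in the controls and at 501 ± 5.2 TPM in the knockout (SD, n = 3), a log2 fold change of -0.22 (adjusted p = 0.024, quasi-likelihood test of edgeR). Psmb6 had 235 ± 16 and 215 ± 3.1 TPM, a log2 fold change of -0.23 (adjusted p = 0.028, quasi-likelihood test of edgeR). Psmb7 had 153 ± 16 and 162 ± 4.3 TPM (log2 fold change -0.02, adjusted p = 0.89 in edgeR's test), and its sign depended on the setting. The calls of Psmb5 and Psmb6 were lost with limma on TPM and without several of the samples.

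The ratio of Psmb8 to Psmb5 was 0.298, 0.319 and 0.307 in Ctrl and 0.419, 0.412 and 0.418 in Nfkbiz KO. The ratio of Psmb9 to Psmb6 was 0.165, 0.163 and 0.145 in Ctrl and 0.280, 0.282 and 0.287 in Nfkbiz KO. That of Psmb10 to Psmb7 was 1.28, 1.12 and 1.06 in Ctrl and 2.05, 2.07 and 2.01 in Nfkbiz KO. All 3 ratios were higher in every knockout sample than in any control, by 0.44, 0.84 and 0.83 on the log2 scale. For each, the two-sided exact permutation test gave p = 0.1, the smallest that 3 samples against 3 allow, and over all 9 ratios the smallest Benjamini-Hochberg adjusted value was 0.1125. Transcripts for Psmb10 outnumbered those for Psmb7 in both groups, whereas Psmb8 and Psmb9 stayed below their counterparts.

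**Figure D2:**
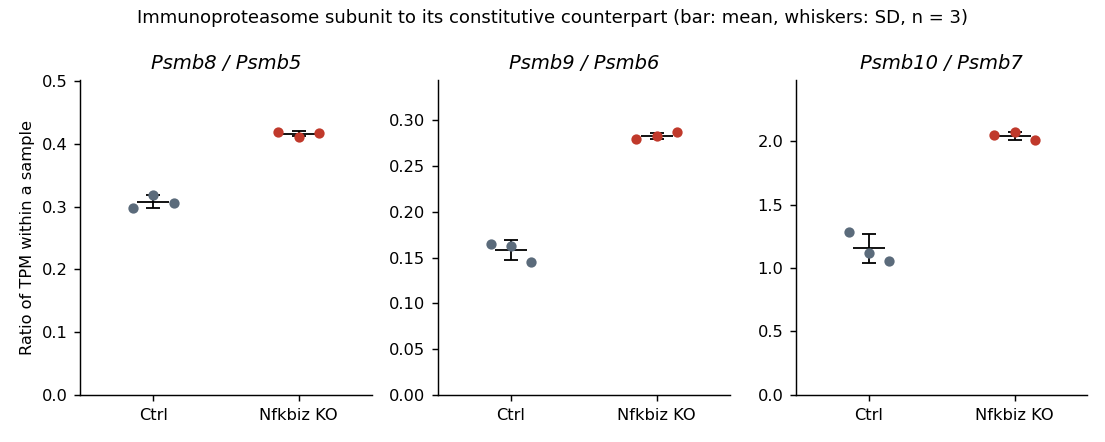
Ratio of the TPM of an immunoproteasome subunit to that of its constitutive counterpart within each sample (vertical axes from 0), for 3 Ctrl (grey) and 3 Nfkbiz KO (red) samples, with the mean as a bar and the SD as whiskers. In the 3 panels all knockout samples lie above all controls, and only in Psmb10 to Psmb7 is the ratio above 1.

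Nlrc5, which acts on class I promoters through the factors RFX, CREB and NF-Y, had the lowest level of the 10 genes and the widest spread among controls. It had 33.2, 36.8 and 26.9 TPM in Ctrl and 42.4, 41.5 and 42.7 TPM in Nfkbiz KO. The lowest control, Ctrl replicate 3, was far below the others, and all knockout samples were above the highest control. The log2 fold change was 0.27 (adjusted p = 0.014, quasi-likelihood test of edgeR, with a standard error of 0.074). Its adjusted p was 0.055 without Nfkbiz KO replicate 1, 0.054 without Nfkbiz KO replicate 3, and 0.057 and 0.068 with limma on log2(TPM + 1) and log2(TPM + 0.1). Nlrc5 is on the plus strand of chromosome 8 from 95160984 to 95253900.

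**Figure D3:**
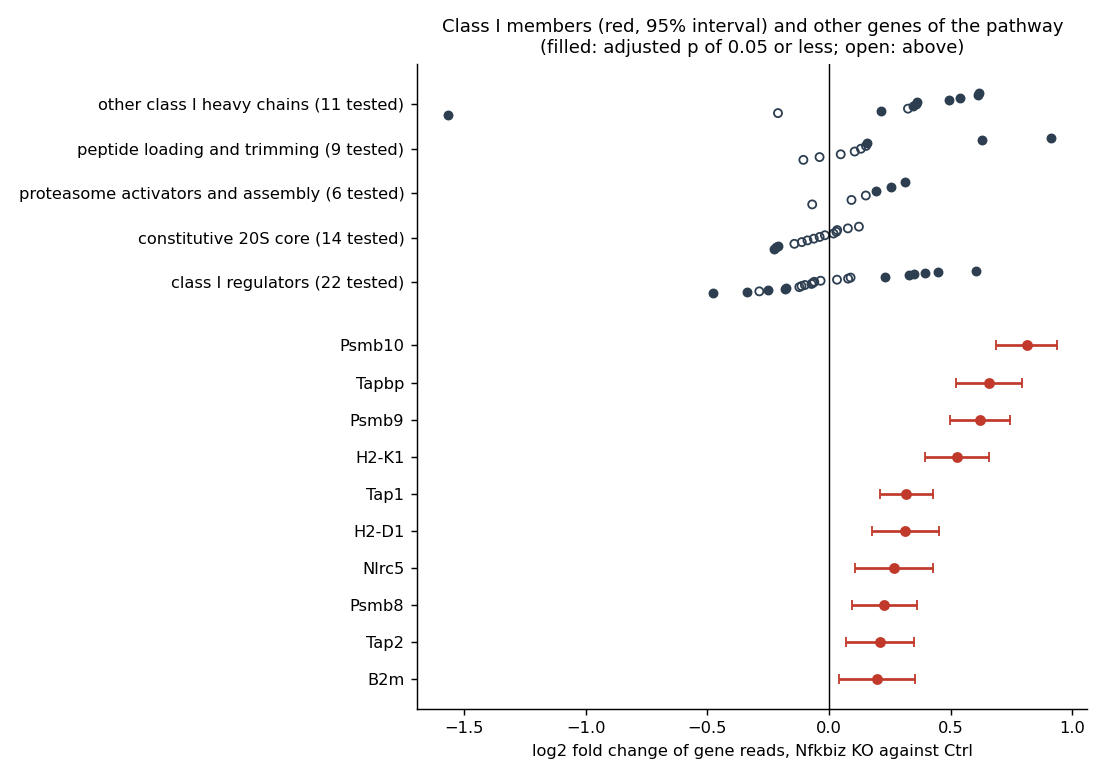
Log2 fold change of gene reads in Nfkbiz KO against Ctrl (horizontal axis) for the 10 class I genes (red, with 95% intervals) and for other genes of the pathway in 5 lists (dark, filled where the adjusted p was 0.05 or less and open above it). All 10 intervals lie above 0, while the constitutive 20S core lies around 0, with 3 of its 14 genes called lower here and 0 with limma on TPM.

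The other genes of the pathway were less uniform. In 5 lists, 62 of 67 genes could be tested, of which 20 were higher, 9 lower and 33 not called, where 36.6% of all genes were called in either direction. Their median log2 fold change was 0.04.

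Among other class I heavy chains, which include the non-classical chains of the Q, T and M regions, 11 of 16 genes were tested. Of these 8 were higher and 1 lower, beside 18.2% and 18.4% of all tested genes. The median log2 fold change of the 11 was 0.36. H2-T22, a non-classical chain bound by some gamma-delta T cells, had 251 ± 5.4 TPM (SD, n = 3) in Ctrl and reached 414 ± 5.9 TPM (SD, n = 3) in Nfkbiz KO (log2 fold change 0.62). H2-Q6 rose by 0.61 and H2-T10 by 0.54 on the log2 scale, the latter with only 66.2% of its reads uniquely mapped. Cd1d1, which presents lipids to NKT cells in place of peptides, was the 1 called lower, at 6.24, 8.25 and 8.24 TPM in Ctrl and 3.29, 3.04 and 2.10 TPM in Nfkbiz KO. It fell by 1.57 on the log2 scale (adjusted p = 2.9e-05, quasi-likelihood test of edgeR). Mr1, named here after its values were seen, also had a negative log2 fold change, -0.21, but was not called (adjusted p = 0.068, same test).

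Of the 9 genes of peptide loading and trimming, 3 were higher and 0 lower in edgeR's quasi-likelihood test, beside 18.2% and 18.4% of all tested genes. The median log2 fold change of the 9 was 0.13. None was lower at an unadjusted p of 0.05 or less in this test, DESeq2, edgeR's likelihood-ratio test or limma, and 2 to 5 were called higher across these other tests. Tapbpl, a tapasin-related peptide editor, had 19.0, 20.8 and 16.1 TPM in Ctrl and 36.2, 37.4 and 38.6 TPM in Nfkbiz KO. Erap1, the aminopeptidase that trims peptides in the endoplasmic reticulum, had 42.7, 47.7 and 39.3 TPM in Ctrl and 72.1, 69.8 and 72.5 TPM in Nfkbiz KO. Both were well separated, with log2 fold changes of 0.91 and 0.63. Ganab, a glucosidase of glycoprotein folding, passed narrowly (log2 fold change 0.15, adjusted p = 0.0496 in edgeR's quasi-likelihood test) and lost its call in most alternatives. The general chaperones Calr, Canx and Pdia3, named here after their values were seen, were not called (log2 fold changes -0.11, 0.13 and -0.04).

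Among 6 proteasome activators and assembly factors, 3 were higher and 0 lower in edgeR's quasi-likelihood test, beside 18.2% and 18.4% of all tested genes. The median log2 fold change of the 6 was 0.17. None was lower at an unadjusted p of 0.05 or less in any of the same tests. The 3 higher genes were the subunits of the PA28 caps of the 20S core, Psme1 (log2 fold change 0.31), Psme2 (0.25, with 73.1% of reads unique) and Psme3 (0.19). In edgeR's quasi-likelihood test the call of Psme2 was lost without Nfkbiz KO replicate 2 (adjusted p = 0.051). That of Psme3 was lost without Nfkbiz KO replicate 1 (adjusted p = 0.058, same test). Of the 14 genes of the constitutive 20S core, 0 were higher and 3 lower in edgeR's quasi-likelihood test, at a median log2 fold change of -0.05, with 0 higher and 4 lower at an unadjusted p of 0.05 or less. Over all tested genes 18.4% were called lower, so the count of lower genes is close to the background. Besides Psmb5 and Psmb6 the lower gene was Psmb4 (-0.21), named here after its values were seen. DESeq2 gave the same counts, but limma on TPM called 0 of the 14 lower and, at a pseudocount of 1, called 1 higher, so the direction of this list depended on the scale.

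Of 22 regulators of class I genes, 6 were higher, 5 lower and 11 not called, with a median log2 fold change of -0.06. These counts are near the background of 18.2% of all tested genes called higher and 18.4% called lower. Irf1, a transcription factor induced by interferon, had 66.9, 70.6 and 66.3 TPM in Ctrl and 101, 97.9 and 99.3 TPM in Nfkbiz KO (log2 fold change 0.45). The groups of Irf1 did not overlap. Rfx5, a subunit of the RFX complex that binds class I promoters with Nlrc5, was higher by 0.39 on the log2 scale. Rfxank, another subunit of the same complex, fell by 0.48 and the histone deacetylase Hdac3 fell by 0.34. Of the reads of Rfx5 and Rfxank, 83.4% and 78.6% were uniquely mapped. The call of Rfxank was lost with limma on log2(TPM + 1) (adjusted p = 0.060) and with limma on log2(TPM + 0.1) (adjusted p = 0.071).

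The class II genes serve presentation to CD4+ T cells and depend on Ciita in place of Nlrc5. Of 11 genes 8 had under 11 reads in every sample, Ciita at most 5. Of the 3 that could be tested, 0 were higher in edgeR's quasi-likelihood test, adjusted or not, and 0 in DESeq2. Over all tested genes edgeR's test called 18.2% higher and 18.4% lower. H2-DMb1, a chaperone chain of class II loading, fell by 1.37 on the log2 scale, at 5.03, 4.30 and 5.81 TPM in Ctrl and 2.91, 1.71 and 1.74 TPM in Nfkbiz KO.

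Of the 10 genes, 7 lie on chromosome 17 between Tapbp and H2-D1, a span of 1352 kb from 34134873 to 35486475 that was chosen after the values were seen. All 7 were called higher. Of the 53 other tested genes in the span that belong to neither class, 0 were higher and 11 lower in edgeR's quasi-likelihood test, with a median log2 fold change of -0.11 and 3 higher at an unadjusted p of 0.05 or less, beside 18.2% of all genes called higher and 18.4% called lower. The other tests called 1 or 2 of these 53 genes higher and 3 to 11 lower.

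**Figure D4:**
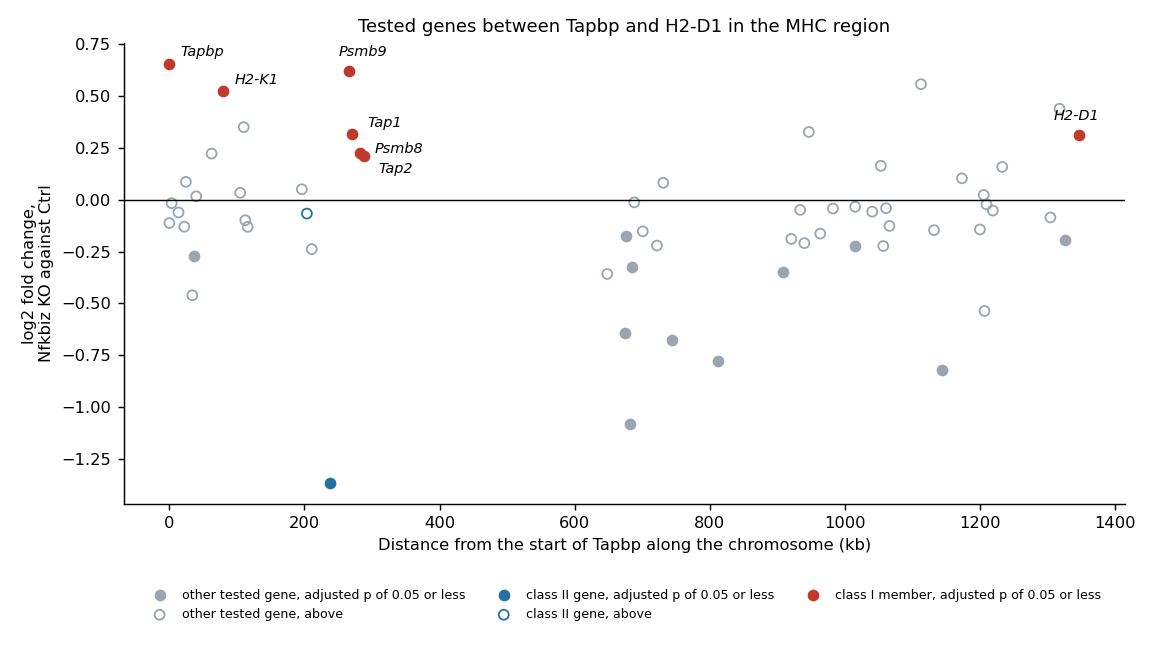
Log2 fold change of gene reads in Nfkbiz KO against Ctrl (vertical axis) by distance from the start of Tapbp along chromosome 17 (horizontal axis, kb) for the tested genes of the span, filled where the adjusted p was 0.05 or less. The 7 class I genes (red) are filled and above 0, and the filled points of other genes (grey) and of class II genes (blue) lie below 0.

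To find the genes most like the 10, each gene was correlated over the 6 samples with their mean standardized level, which was -0.61 to -1.16 in Ctrl and 0.78 to 0.87 in Nfkbiz KO. Since the samples form 2 groups that share the contrast, a high value mainly says that a gene is separated by group with little spread, and it is given as a description. Of 14409 genes the highest were Stard3 (Pearson's r = 0.999, a cholesterol carrier of late endosomes), Sox2 (0.998, a transcription factor of stem and neural cells), Dok1 (0.998, a docking protein of tyrosine kinases), Ccno (0.997, needed for multiciliated cells) and Naip1 (0.997, an inflammasome receptor). Sox2 was at 70.2 ± 2.9 TPM in the controls and at 147 ± 1.2 TPM in the knockout (SD, n = 3), with a log2 fold change of 0.97. Ccno and Naip1 were scarce, with at most 46 and 6 reads in any Ctrl sample.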

How the data were processed

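RNA of D4M-3A cells (3 Ctrl and 3 Nfkbiz KO samples) was sequenced in pairs of 150 bases. Per the paper, the authors mapped reads with CLC Genomics Workbench 24.0 to GRCm39, without regard to strand and with up to 10 hits per read; the submitters' processing notes name GRCm38. The files hold no coordinates, so positions were taken by symbol from a GENCODE annotation of GRCm39. The deposited gene reads are raw counts. The deposited TPM values, computed from exons, write decimals with a comma, which was converted.

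Counts were tested with edgeR 4.0.16 in R 4.3.3 (quasi-likelihood test, TMM factors of 0.978 to 1.01, filterByExpr with a minimum count of 10 and a total of 15), with Benjamini-Hochberg adjustment over 14419 genes. All 10 class I genes passed the filter. The standard error is the log2 fold change divided by the square root of F. In each sample 96.5% to 96.88% of gene reads were unique. Counting noise was exceeded between replicates of each group (chi-square per degree of freedom 28.0 to 71.6 in Ctrl, 3.50 to 6.26 in Nfkbiz KO), and none were duplicates. The script was tested on simulated counts with 200 changed genes. Intervals cover these samples only.

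The class I genes and all lists were chosen with earlier results of these data known. Named are the 10 genes, Nfkbiz, Psmb5, Psmb6, Psmb7, Irf1, in each list up to 3 called genes with the highest and 2 with the lowest log2 fold change, and the 5 genes most like the 10; 1 further gene of the rule is not reported here. Alternatives were RLE factors, no filter, DESeq2 1.42.0, edgeR's likelihood-ratio test, uniquely mapped reads, limma 3.58.1 on log2 TPM with a pseudocount of 1 or 0.1, a replicate block and each sample left out. The RPKM values were not used. Figures were drawn with matplotlib 3.10.9.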

Additional observations from a re-analysis of the deposited data

How the results depend on the processing

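All 10 class I genes kept their direction under the 8 other settings and the 6 fits with a sample left out. The number called was 9 or 10 under the other settings and 6 to 10 with a sample left out, being lowest without Nfkbiz KO replicate 3, when B2m, Tap2, Psmb8 and Nlrc5 missed the threshold. H2-K1, H2-D1, Tap1, Tapbp, Psmb9 and Psmb10 were called in every fit. The median log2 fold change of the 10 genes was 0.41 with limma on log2(TPM + 1) and 0.41 on log2(TPM + 0.1), where the median of all genes was 0.06 and 0.08, so that the distance between the medians, 0.33 in the main test, was 0.35 and 0.33; the cause of the shift was not tested. Replicate numbers did not pair the samples (correlation of same-numbered deviations 0.037, -0.023 and 0.026), and with a replicate block 10 class I genes and 28 of the other pathway genes were called, as against 29 without it. Psmb7, never called, changed sign to 0.083 in both limma fits, to 0.0033 without Nfkbiz KO replicate 2 and to 0.090 without Ctrl replicate 3, and ran from -0.088 to 0.090 over the fits with a sample left out. For the other pathway genes the number called was 25 to 31 under the other settings and 21 to 34 with a sample left out. Among the fold changes of the genes under the naming rule over all settings, 448 kept their direction and side of the threshold, 38 lost their call and 4 changed sign. The p of 0.1 of the permutation tests cannot fall further with 3 samples a group.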
